A study of Mus musculus with 6 samples.

Results

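Genes of the slow-twitch contractile apparatus and of the stress response of striated muscle were followed in mouse skin, namely Ankrd1, Ankrd2, Csrp3, Tnnt1, Tnni1, Tnnc1, Myh7, Myl2, Myl3 and Atp2a2. They are 10 of 18193 genes with a probe set of their own on the array, and all 18 of their probe sets that carry no second gene symbol are described. Skin RNA from 6 mouse samples on a C57BL/6 background was measured on single-channel Affymetrix arrays, 1 array per sample. Of these, 3 samples were labelled wild-type and 3 knock-in (genotype code KA). The labels do not name the altered gene and give no sex, age, body site or treatment, and nowhere is each sample tied to its own animal. Any p-value below thus reflects the spread among these samples alone, which may be technical. The genes were chosen by their measured signals on the knock-in and wild-type arrays, so their own differences are a description, and where the fit over all genes calls one of them, the call carries no weight as a test.

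Skeletal muscle is a mosaic of slow fibres, which contract slowly and rely on oxidative metabolism, and several kinds of fast fibre, and each kind builds its sarcomere from its own versions of troponin, myosin and the calcium pump. Mouse skin carries a thin sheet of striated muscle, the panniculus carnosus, beneath the dermis, and it is made mostly of fast fibres. Ankrd1 and Ankrd2 are muscle ankyrin repeat proteins that bind the giant protein titin and also enter the nucleus, and Csrp3 is the muscle LIM protein of the Z-disc. All 3 are known to be induced when muscle is stretched, injured or overloaded, and Ankrd1 is also known from healing wounds.

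The bases before the start of transcription are shown for 4 genes with large differences between the groups, so that the motifs described next can be seen in their context. Each is the 250 bases upstream of a RefSeq start (build GRCm38.p6), written 5′ to 3′ on the gene's own strand. Capitals mark the M-CAT motif CATTCC, the sequence that TEAD factors bind, or the TATA box TATAAA, on either strand. The stretches are chr19:36119845-36120094 (minus strand) for Ankrd1, chr19:42035777-42036026 (plus strand) for Ankrd2, chr7:48848052-48848301 (minus strand) for Csrp3 at the first of its 2 listed starts, and chr7:4515976-4516225 (minus strand) for Tnnt1.
Ankrd1: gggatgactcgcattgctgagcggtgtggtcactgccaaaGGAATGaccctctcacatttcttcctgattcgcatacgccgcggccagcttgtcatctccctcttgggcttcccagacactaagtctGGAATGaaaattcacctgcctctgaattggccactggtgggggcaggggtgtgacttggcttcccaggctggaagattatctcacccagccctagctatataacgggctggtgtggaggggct
Ankrd2: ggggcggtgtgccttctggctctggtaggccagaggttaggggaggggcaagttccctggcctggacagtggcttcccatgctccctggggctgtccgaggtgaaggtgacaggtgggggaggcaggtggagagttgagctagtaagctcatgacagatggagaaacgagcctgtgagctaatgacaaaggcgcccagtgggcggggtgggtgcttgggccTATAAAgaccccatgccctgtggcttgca
Csrp3: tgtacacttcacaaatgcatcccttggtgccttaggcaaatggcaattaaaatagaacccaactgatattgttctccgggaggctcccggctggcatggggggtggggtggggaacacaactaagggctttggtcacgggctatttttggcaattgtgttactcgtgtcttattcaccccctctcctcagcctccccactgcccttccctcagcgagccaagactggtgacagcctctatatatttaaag
Tnnt1: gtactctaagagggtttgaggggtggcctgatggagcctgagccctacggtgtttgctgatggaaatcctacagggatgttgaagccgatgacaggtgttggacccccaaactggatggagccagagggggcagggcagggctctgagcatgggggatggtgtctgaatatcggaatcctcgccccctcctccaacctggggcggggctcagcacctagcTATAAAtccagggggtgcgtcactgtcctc

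The Ankrd1 stretch holds 2 M-CAT motifs, whose first bases lie at -210 and -123 from the start, and the Ankrd2 and Tnnt1 stretches each hold a TATA box, at -29 and -30. The Csrp3 stretch holds none of these motifs and 4 E-boxes, the motif CANNTG that MyoD-type factors bind. RefSeq stretches were matched by symbol for 9 of the genes, with 13 starts in all, and Atp2a2 was not matched. Of the 13 stretches, 4 held the M-CAT motif (1 each of Ankrd1, Tnnc1, Myh7 and Myl3), 3 the TATA box (1 each of Ankrd2, Tnnt1 and Myl2) and all 13 the E-box. Of all 32851 stretches of that length, 12.6% held the M-CAT motif, 12.4% the TATA box and 66.2% the E-box. A CArG box, which binds serum response factor, was found in 1 of the 13, that of Myl3 (1.47% of all stretches), and a MEF2 motif in 0 (0.508%). Both strands were searched, and the palindromic E-box was counted once. The TATA match of Myl2 lies on the opposite strand, at -216. Only exact letters were counted, so the TATATAA in the Ankrd1 stretch was not. The motifs do not overlap each other in the printed stretches. These matches describe letters in a window and no binding was measured.

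The deposited values are MAS5 signal intensities, and every array had been scaled to the same 2% trimmed mean of 150. Each difference is the knock-in mean less the wild-type mean of log2(signal + 16), with a standard error from the spread of 3 and 3 arrays. For dim genes the added 16 gives a smaller difference than a lower offset would, and which is nearer the true change cannot be told here. Xist, the RNA of the inactive X chromosome, had signals of 27.8 to 32.5 on the wild-type arrays and 3442 to 4005 on the knock-in arrays, and the Y-linked gene Eif2s3y had 639 to 721 and 4.43 to 5.45. Sex and genotype thus cannot be told apart anywhere in these data. Skin markers were bright on all arrays, with the basal keratin Krt14 at signals of 5905 to 6530 in wild-type and 9378 to 11764 in knock-in. Of 5 keratinocyte markers 2 rose and 3 did not pass (summed signal 31420 to 36380 in wild-type, 35230 to 46740 in knock-in). Of 4 endothelial markers 3 rose and 1 did not pass (summed signal 233 to 333 and then 576 to 716), and of 4 fibroblast markers 1 rose, 1 fell and 2 did not pass (15350 to 20810 and then 16370 to 17880). Of all genes tested, 14.8% were called higher and 16.3% lower. The part of these cell types in the results was not tested. In such bulk samples, a different number of muscle fibres and a different amount of RNA per fibre cannot be told apart either.

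The stress genes showed the widest separation. Csrp3 (probe set 1460318_at) had signals of 309, 286 and 173 on the wild-type arrays and 3466, 1452 and 1757 on the knock-in arrays. The lowest knock-in value was above the highest wild-type value by a wide margin. Its mean signals were 256 ± 73.0 and 2225 ± 1085 (SD, n = 3 each), and the log2 difference was 2.98 ± 0.45 (SE). Ankrd2 (1419621_at) had signals of 90.0, 81.7 and 37.1 in wild-type and 1351, 490 and 702 in knock-in. The groups did not overlap, and the log2 difference was 3.27 ± 0.52, the largest of the 10 genes.

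Ankrd1 is read by 2 probe sets, which tracked each other closely. The first (1420991_at) had signals of 69.6, 36.3 and 12.4 in wild-type and 594, 181 and 307 in knock-in. The second (1420992_at) had signals of 54.2, 32.6 and 11.7 in wild-type and 637, 144 and 310 in knock-in. On both, wild-type replicate 3 and knock-in replicate 1 were the extremes, and the groups did not overlap. The log2 differences were 2.75 ± 0.66 and 2.83 ± 0.70. In wild-type only replicate 1 was above its array's median signal for Ankrd1, so the wild-type level of this gene lay among dim values.

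**Figure D1:**
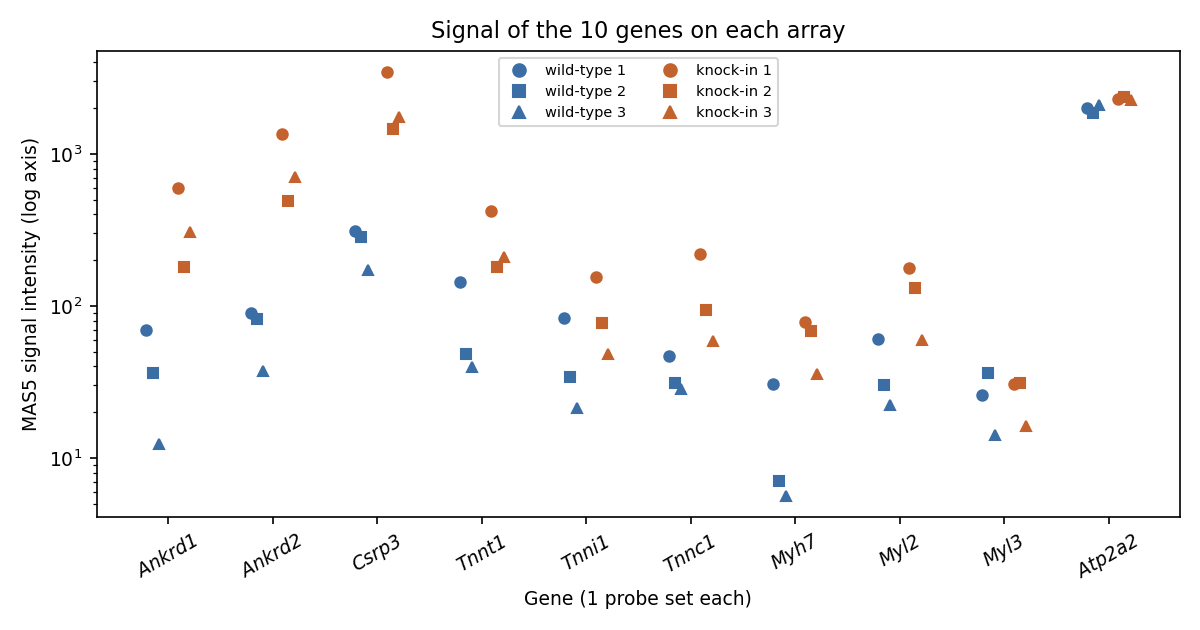
MAS5 signal intensity (log axis) of the 10 genes on each of the 6 arrays, 1 probe set per gene, with wild-type arrays in blue, knock-in arrays in orange and the marker shape giving the replicate number. Csrp3, Ankrd2 and Ankrd1 have every knock-in array above every wild-type array, while Myl3 overlaps and the Atp2a2 points lie close together.

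The slow troponins, which make up the calcium switch of the slow thin filament, differed less than the stress genes. Tnnt1, the tropomyosin-binding subunit (1419606_a_at), had signals of 144, 48.3 and 39.8 in wild-type and 419, 180 and 209 in knock-in. Wild-type replicate 1 came near the lowest knock-in array but did not reach it, and the log2 difference was 1.69 ± 0.59. Tnnc1, the calcium-binding subunit shared by slow and cardiac muscle (1418370_at), had signals of 46.7, 31.2 and 28.4 in wild-type and 219, 94.3 and 58.4 in knock-in. The groups did not overlap, and the log2 difference was 1.29 ± 0.51.

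Tnni1, the slow inhibitory subunit (1450813_a_at), had signals of 82.8, 34.1 and 21.2 in wild-type and 154, 77.8 and 48.0 in knock-in. The groups overlapped, because wild-type replicate 1 lay above knock-in replicates 2 and 3. The log2 difference was 0.82 ± 0.58, little more than its standard error.

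The slow myosin genes were dim on these arrays. Myh7, the slow heavy chain that is also the main ventricular one in humans (1448553_at), had signals of 30.5, 7.0 and 5.65 in wild-type and 78.2, 68.3 and 35.9 in knock-in. The groups did not overlap, but all 3 wild-type arrays and knock-in replicate 3 lay below their array's median. The log2 difference was 1.38 ± 0.44 and depended on the offset, being 2.30 with an offset of 1 and 0.67 with 64. A further pair of probe sets names both Myh7 and Myh6 and was left out by the choice of genes. Of these, 1448554_s_at had signals of at most 3.37 in wild-type and 22.5 in knock-in, and 1448827_s_at of at most 6.37 and 0.579.

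Myl2, the slow regulatory light chain (1448394_at), had signals of 60.7, 30.3 and 22.1 in wild-type and 178, 131 and 59.5 in knock-in. Knock-in replicate 3 lay just under wild-type replicate 1, so the groups overlapped, with a log2 difference of 1.33 ± 0.50. Myl3, the slow essential light chain, has 3 probe sets, and all of them were below the array median on every array. The brightest (1428266_at) had signals of 26.0, 36.1 and 14.1 in wild-type and 30.5, 31.4 and 16.2 in knock-in. The groups overlapped on all 3 probe sets, and the log2 differences were 0.04 ± 0.29, 0.49 ± 0.34 and -0.03 ± 0.22. The first was negative when any of 3 arrays was left out: -0.18 without the third wild-type array, -0.05 without the first knock-in array and -0.06 without the second.

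Atp2a2 encodes the calcium pump that refills the sarcoplasmic reticulum of slow and cardiac muscle, and a splice form of it serves the endoplasmic reticulum of keratinocytes and most other cells. Its brightest probe set (1427250_at) had signals of 2010, 1854 and 2100 in wild-type and 2314, 2369 and 2266 in knock-in. The groups did not overlap, but the log2 difference was only 0.22 ± 0.06. The 6 probe sets of the gene disagreed in direction. Of these, 4 had a positive difference (0.10 to 0.30) and 2 a negative one, namely 1427251_at (-0.22 ± 0.08) and 1437797_at (-0.38 ± 0.13), both without overlap between the groups. With the mean over its probe sets the log2 difference of Atp2a2 was 0.04, so no direction can be given for the gene as a whole.

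**Figure D2:**
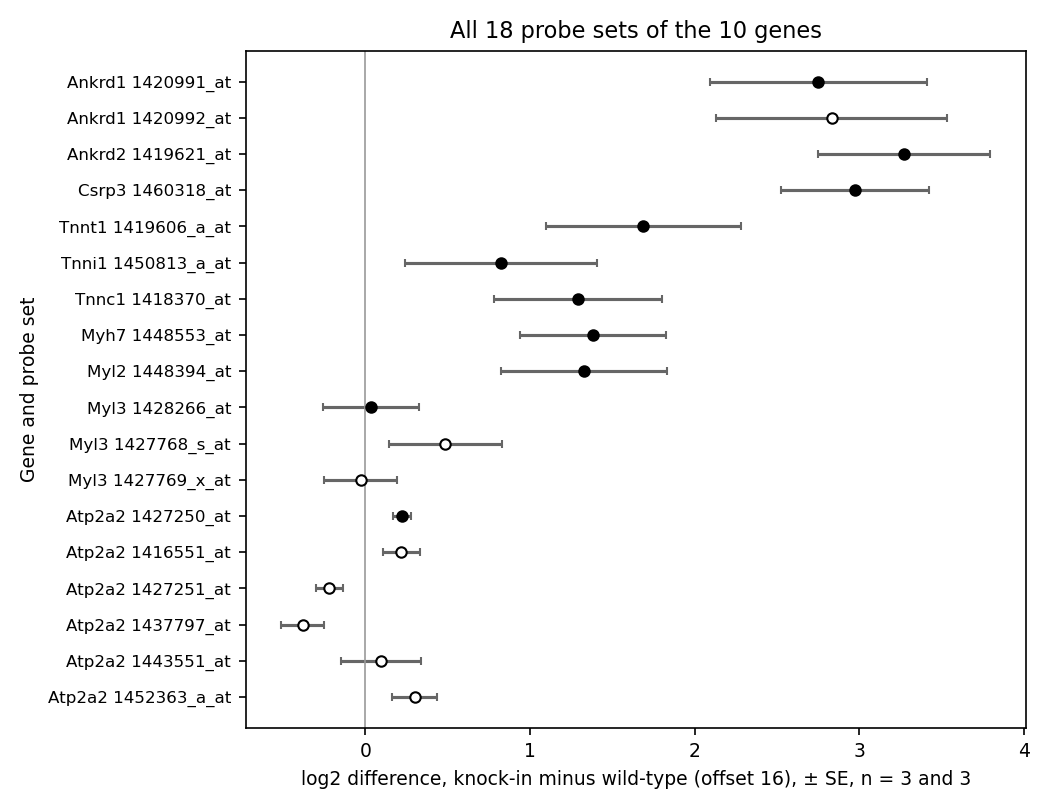
Log2 difference between knock-in and wild-type (x axis, offset 16, error bars SE, 3 arrays per group) for all 18 probe sets of the 10 genes; filled points are the probe set that stands for the gene. The 4 probe sets of Ankrd1, Ankrd2 and Csrp3 lie between 2.75 and 3.27, and those of Atp2a2 lie on both sides of 0.

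Of the 10 genes, 8 passed the filter on dim signals, which asked for at least 3 arrays above the array's median, and Myh7 and Myl3 did not. Csrp3 and Atp2a2 were above the median on all 6 arrays. The other 6 (Ankrd1, Ankrd2, Tnnt1, Tnni1, Tnnc1 and Myl2) passed through their knock-in arrays and would not have passed on wild-type arrays alone. In the fit over all 11670 genes that passed (limma, Benjamini-Hochberg adjusted p under 0.05), 14.8% of genes were called higher in knock-in and 16.3% lower (31.2% in all), and in 47.1% the groups did not overlap. With each array centred on its median, the calls split into 2567 higher and 1202 lower, against 1729 and 1907 here. Ankrd1, Ankrd2, Csrp3, Tnnt1, Tnnc1 and Myl2 were called higher, which makes 6 of the 8, and 0 were called lower. Without wild-type replicate 3, 3 genes were called (Ankrd1, Ankrd2 and Csrp3). Without the filter, where 9.18% of all 18193 genes were called higher and 9.92% lower (19.1% in all), 7 of the 10 were called higher, Myh7 being the addition, and 0 lower. The groups did not overlap, with knock-in higher, for 7 of the 10 genes, against 16.9% of all genes, and with knock-in lower for 0, against 20% of all genes. Of the 18 probe sets, 8 were higher without overlap, against 14.6% of all single-symbol probe sets. These counts follow from how the genes were chosen, and nothing is read from them. The median log2 difference of the 10 was 1.36, from 0.04 for Myl3 to 3.27 for Ankrd2, and the median of all genes without the filter was -0.02. The median of the 10 was 1.80 with an offset of 1 and 0.84 with an offset of 64. With 64, the differences of Tnni1 (0.50), Tnnc1 (0.83) and Myl2 (0.84) were also well below those with 16.

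Within each group, the 10 genes and the muscle gene lists were not all highest on the same array. Among the wild-type arrays, replicate 1 was the highest for 8 of the 10 slow and stress genes, whereas replicate 2 was the highest for all 20 genes of a fast-fibre list, which holds the fast versions of the same sarcomere parts. Replicate 2 was also the highest for 22 of 23 genes that all fibre types share, 8 of 13 other slow-fibre genes (replicate 1 for 3) and 9 of 18 other stress genes (replicate 1 for 6). Replicate 1 was thus not the highest for most genes of these lists. Ankrd1, Tnni1, Tnnc1, Myh7, Myl2 and Myl3 lay below the array median on wild-type replicates 2 and 3, so their order there rests on dim values. The median deviation from the wild-type mean over the 10 genes was 0.47 on replicate 1, -0.10 on replicate 2 and -0.46 on replicate 3. The fast-fibre genes had medians of -0.36, 0.41 and -0.11 on the same arrays. Among the knock-in arrays both sets were highest on replicate 1, for 8 of the 10 genes and 19 of the 20, with median deviations of 0.72 and 0.51. Of all genes tested, 4023 of 11670 were highest on wild-type replicate 1 and 3300 on knock-in replicate 1. The genes of a set come from the same arrays and are not replicates, so these are counts with no test, made after the values were seen.

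**Figure D3:**
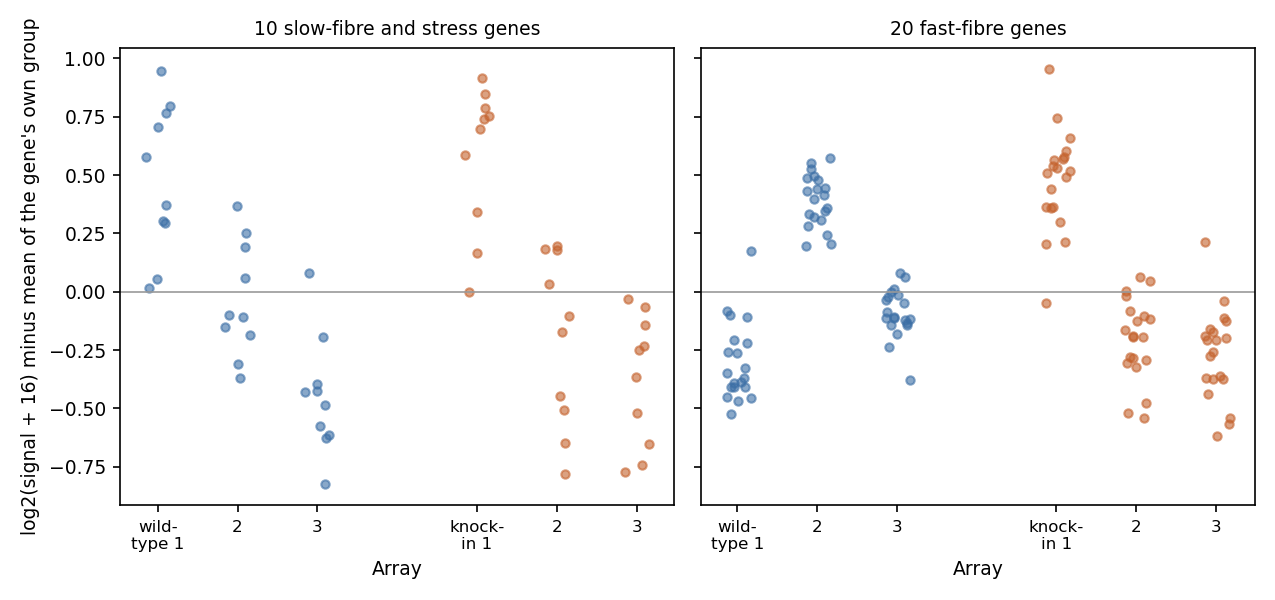
Deviation of each array from the gene's own group mean (y axis, log2 with offset 16) for the 10 slow-fibre and stress genes (left) and 20 fast-fibre genes (right), with 1 point per gene and array. On the wild-type arrays the left panel is highest at replicate 1 and the right panel at replicate 2; on the knock-in arrays both are highest at replicate 1.

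Each slow gene was paired with a fast counterpart for the same component, and the counterpart had a negative difference in all 7 pairs. Of these counterparts, Tnni2 and Mylpf did not pass. The result for Myh7 depends on the choice of Myh4, since the other fast heavy chains, Myh1 (0.30) and Myh2 (1.00), had positive differences. The change of a pair is the log2 difference of the slow gene minus that of its fast counterpart. Since the slow gene of each pair was chosen for its signals in these groups, the changes are a description. The change was 2.58 ± 0.67 (SE) for Tnnt1 against Tnnt3. It was 2.02 ± 0.40 for Tnnc1 against Tnnc2 and 2.00 ± 0.55 for Myl2 against Mylpf. The pump pair Atp2a2 and Atp2a1 changed by 1.51 ± 0.42, the pair Tnni1 and Tnni2 by 1.47 ± 0.63, and the pair Myl3 and Myl1 by 0.83 ± 0.29. For Myh7 against Myh4, the heavy chain of the fastest mouse fibres, the value was 3.13 ± 0.60, but it has no firm size because Myh7 was below the array median on every wild-type array: it was 4.06 with an offset of 1 and 2.40 with 64. Myl3 was likewise dim on every array.

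Array by array, the slow value minus the fast value was above every wild-type array on all 3 knock-in arrays for 6 of the 7 pairs. Nothing is read from this count, which draws on the chosen genes; single genes were higher without overlap in 16.9% of all genes. The exception was Tnni1 and Tnni2, where wild-type replicate 1 stood at -5.41 and knock-in replicate 3 at -5.54. For Tnnt1 and Tnnt3 the wild-type arrays stood at -4.68, -6.78 and -6.52 and the knock-in arrays at -3.28, -3.67 and -3.30. Only the change between groups can be read from these values, since different probe sets have different brightness. The change of the pump pair rests on Atp2a1 falling by 1.29, not on the small difference of Atp2a2.

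**Figure D4:**
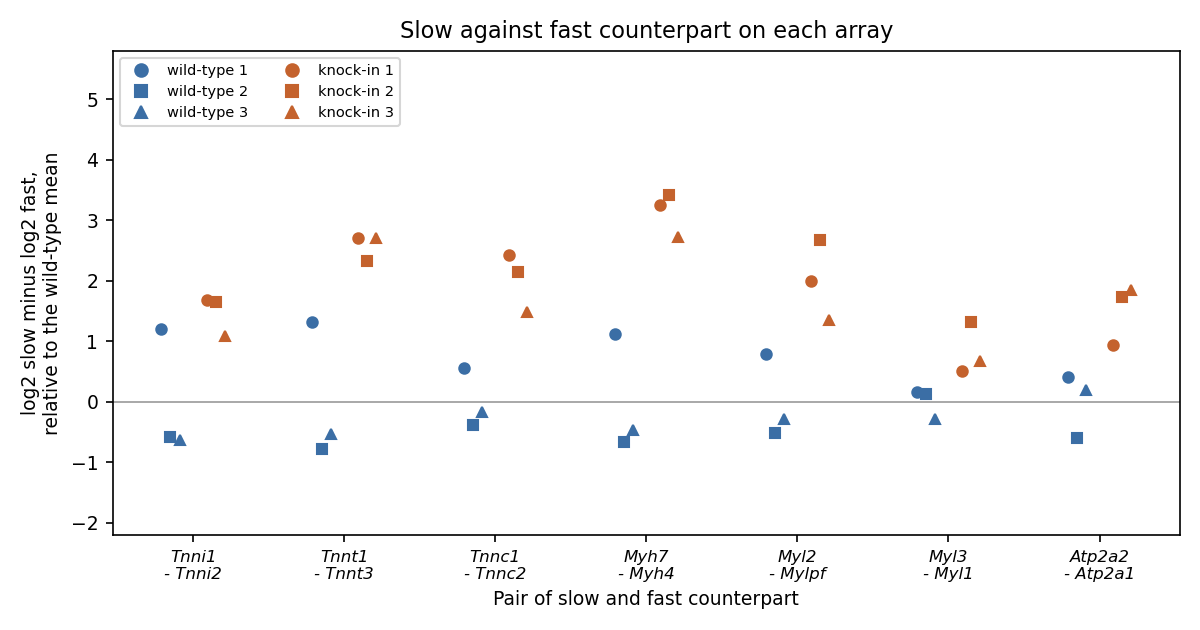
Log2 signal of the slow gene minus log2 signal of its fast counterpart on each array (y axis, offset 16, relative to the mean of the 3 wild-type arrays) for 7 pairs. Knock-in arrays (orange) lie above all wild-type arrays (blue) for 6 pairs, and wild-type replicate 1 (blue circle) is the highest wild-type array in every pair.

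The fast counterparts are not among the 10 genes and were tested. This list was, however, also chosen with earlier results of these data known, so its calls are no independent support. Of the 20 fast-fibre genes, 15 fell, 0 rose and 5 did not pass. Among all genes tested, 16.3% were called lower and 14.8% higher. The median log2 difference of the 20 was -0.99. Their summed signal was 54310 to 85120 in wild-type and 29140 to 50410 in knock-in. Pvalb, the calcium buffer of fast fibres, fell by 3.40 ± 0.29 (limma adjusted p = 2.48e-05). Casq1, the fast calcium store protein, fell by 2.54 ± 0.35, and Mybpc2, fast myosin-binding protein C, fell by 1.86 ± 0.36. Tnnt3 (-0.89), Tnnc2 (-0.73) and Myl1 (-0.80) fell by less, and the 3 calls were lost without wild-type replicate 2, and also without knock-in replicate 2 and without its replicate 3. Tnnt3 and Tnnc2 were lost without wild-type replicate 3 too, and also without the filter and with the replicate numbers as a block. Tnni2 (-0.65 ± 0.36) and Mylpf (-0.68 ± 0.37) did not pass, but both did without knock-in replicate 1 (-0.92 and -0.98), and Tnni2 without wild-type replicate 1 (-0.85).

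Of the 3 fast myosin heavy chains, which define the fast fibre types, Myh4 fell and Myh1 and Myh2 did not pass. Myh4 fell by 1.75 ± 0.24 (adjusted p = 3.20e-04), from signals of 6236, 10540 and 8650 in wild-type to 2853, 2290 and 2276 in knock-in. Myh1, of the intermediate fast fibres, had signals of 4542, 4640 and 3098 and then 7828, 4559 and 3396, and the groups overlapped (0.30 ± 0.40, adjusted p = 0.462; -0.03 without knock-in replicate 1). Myh2, of the fast oxidative fibres, had signals of 548, 747 and 497 in wild-type and 2327, 826 and 875 in knock-in, which did not overlap (1.00 ± 0.51, adjusted p = 0.0636). It passed without knock-in replicate 2, with each array centred on its median and with array weights. Set against each other within arrays, Myh1 changed by 2.04 ± 0.40 more than Myh4 and Myh2 by 0.70 ± 0.25 more than Myh1, in both cases without overlap between the groups. Myh7 changed by 0.39 ± 0.57 more than Myh2, with overlap, and this order turned with an offset of 64, where the differences were 0.67 for Myh7 and 0.95 for Myh2. The myosin heavy chain genes are close in sequence, and a probe set of one may also read another.

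Beyond the 10 genes, 9 lists of muscle and related genes were examined in the same fit, and Casq2, Des and 6 other genes stand on more than 1 of them. All were chosen with earlier results of these data known. The count of each list stands beside 14.8% of all genes tested called higher and 16.3% called lower. Of 13 measured genes on a list of other slow-fibre genes, 6 rose, 1 fell and 6 did not pass, with a median log2 difference of 0.41. Pdk4, a kinase that restrains glucose oxidation, rose by 2.51 ± 0.32 (adjusted p = 1.66e-04), from signals of 377, 619 and 462 to 3896, 2419 and 2287. Myoz2, the slow Z-disc protein calsarcin-1, rose by 1.97 ± 0.52, Sln, the pump inhibitor sarcolipin, by 1.88 ± 0.52, and Xirp1, an actin-binding repair protein, by 1.96 ± 0.38. Sln rose by 1.00 with the mean over its probe sets, and the dim Xirp1 by 1.07 with an offset of 64. Xirp1 was below the median on all wild-type arrays (signals of at most 21.1) and passed the filter through its knock-in arrays. Ckmt2, a mitochondrial creatine kinase, fell by 1.08 ± 0.37, and it was the only gene of this list that fell. Of those that did not pass, Mb (-0.71 ± 0.35), Ppargc1a (-0.38), Smpx (-0.37) and Tead1 (-0.22) had negative differences. Mybpc1 (0.47) and Casq2 (0.41) had positive ones. Below the filter, Myh7b (-0.71), Myl6b (-0.59) and Pln (-0.55) were negative. The list's median was 0.05 without the filter and 0.18 without knock-in replicate 1.

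Of 23 measured genes that all striated fibres use, 1 rose, 6 fell and 16 did not pass, with a median log2 difference of -0.60. Several that did not pass had negative differences of some size, such as Myom1 (-0.99 ± 0.48), Neb (-0.71 ± 0.49) and Ttn (-0.68 ± 0.46), large structural proteins of the sarcomere. Dystrophin (Dmd) fell by 1.27 ± 0.14, Cox7a1, a muscle subunit of cytochrome oxidase, fell by 1.44 ± 0.32, and the creatine kinase Ckm fell by 1.05 ± 0.32. The gene that rose was Actn2, an actin cross-linker of the Z-disc (1.05 ± 0.41), named after its value was seen. The summed signal of the 24 genes on the array was 28010 to 42310 in wild-type and 20910 to 37400 in knock-in. Jph1, which ties the reticulum to the surface membrane, fell by 1.07 ± 0.33, a call lost when the third array of either group was left out. With the mean over probe sets the values were -0.67 for Dmd and -0.69 for Jph1. Skeletal actin (Acta1) had a difference of 0.01 ± 0.23, whose sign turned with quantile normalization (-0.13) and when the first (-0.07) or the third (-0.01) wild-type array or the first knock-in array (-0.20) was left out. Without knock-in replicate 1, 15 of these genes fell, and without knock-in replicate 3, 3 did.

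Among 18 measured genes of muscle stress, titin partners and atrophy, 7 rose, 1 fell and 10 did not pass, with a median log2 difference of 0.37. Trim63, the ubiquitin ligase MuRF1 of muscle wasting, rose by 1.96 ± 0.23 (adjusted p = 1.66e-04), with signals of 232, 381 and 269 in wild-type and 1375, 1125 and 1031 in knock-in. The metallothioneins Mt1 and Mt2, which many skin cells also make, rose by 1.91 ± 0.24 and 1.54 ± 0.26. Hspb8, a small heat shock protein, fell by 0.61 ± 0.10. Among genes outside the rule for naming, Hspb7 (1.85), filamin C (Flnc, 1.80), Mustn1 (1.35) and Cryab (0.92) also rose, and were named after their values were seen. Fbxo32, the other ubiquitin ligase of atrophy, had a difference of 0.21 ± 0.09 and did not pass, and Ankrd23, the third muscle ankyrin repeat protein, had 0.40 ± 0.38. With each array centred on its median, 11 genes of this list rose. That centring moved the median of all genes tested from -0.02 to 0.11.

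Genes of denervation, regeneration and satellite cells were dim, and 9 of 18 on the array passed the filter. Of these, 4 rose, 0 fell and 5 did not pass. The median log2 difference was 0.40, and 0.23 without the filter, where 3 rose and 0 fell. Genes below the filter went both ways, from -0.44 for Myod1 to 0.36 for Myh3. The myogenic factors Myog and Myf6 rose by 0.93 ± 0.31 and 0.97 ± 0.37, the acetylcholine receptor subunit Chrna1 by 0.66 ± 0.18 and the adhesion molecule Ncam1 by 0.43 ± 0.12. Chrna1 was below the median on all wild-type arrays and Myog on wild-type replicates 2 and 3. Both passed the filter through their knock-in arrays. With an offset of 64 Myog rose by 0.56 and Chrna1 by 0.38, and Ncam1 did not pass with the mean over its probe sets (0.25). The count was 0 without the third wild-type array, 1 without the first wild-type array or the first or the third knock-in array, and 2 without the second knock-in array. The embryonic myosin Myh3, the satellite cell factor Pax7 and Myf5 were below the filter, with signals of at most 66.4, 18.7 and 13.1 on any array.

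Of 20 measured calcium-handling partners of the pumps, 3 rose, 7 fell and 10 did not pass, where 14.8% of all genes tested were called higher and 16.3% lower. The kinase Camk2a fell by 1.58 ± 0.23, the calcium-binding protein Hrc fell by 1.16 ± 0.24 and the junctional protein Jph2 fell by 1.50 ± 0.37, beside Casq1 above, while Sln rose. Camk2a was below the median on all knock-in arrays (signals of at most 34.7) and passed the filter through its wild-type arrays. With the mean over probe sets the differences were smaller for Camk2a (-0.47) and Jph2 (-0.88), and Camk2a was at -0.98 with an offset of 64. Of 17 measured targets of YAP and TEAD, a set that includes Ankrd1 in other tissues, 4 rose, 7 fell and 6 did not pass. The matricellular protein Ccn1 rose by 1.70 ± 0.07 (adjusted p = 1.62e-05) and the receptor Axl by 0.83 ± 0.09, while Crim1 (-1.09 ± 0.15) and Tgfb2 (-1.33 ± 0.28) fell. With the mean over their probe sets Ccn1 rose by 0.73 and Axl did not pass (0.32). Ccn2 had a difference of -0.10 ± 0.18. Lower YAP and TEAD targets numbered 4 when the third array of either group was left out.

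Markers of cardiac muscle, which also makes several of the 10 proteins, and of smooth muscle were examined. Of 10 cardiac markers, 3 passed the filter: Nppb rose by 0.94 ± 0.32, a call lost without wild-type replicate 3 (0.62 with an offset of 64), and Myl4 (0.44 ± 0.44) and Tnnt2 (0.32 ± 0.37) did not pass. The cardiac myosin Myh6, Myl7 and Ryr2 had signals of at most 3.12, 11.7 and 14.7 on any array, and Nppa, Nkx2-5 and Tnni3 of at most 22.8, 27.9 and 28.2. All 6 were below the filter, but the brighter 3 lay in the range of Myl3 and of wild-type Myh7, which are themselves dim. The summed signal of the 10 cardiac markers was 295 to 360 in wild-type and 349 to 581 in knock-in. Of 10 measured smooth muscle markers, 0 rose, 2 fell (Smtn, -0.74 ± 0.15, and Pcp4l1, -0.68 ± 0.26) and 8 did not pass. The call of Pcp4l1 was lost when the second or the third array of either group was left out, so that 1 gene fell. Casq2 (0.41 ± 0.20) and Des (0.57 ± 0.42), which striated muscle also makes, did not pass in that list. The 12 smooth muscle genes on the array had a summed signal of 4177 to 5117 in wild-type and 3924 to 5070 in knock-in.

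**Figure D5:**
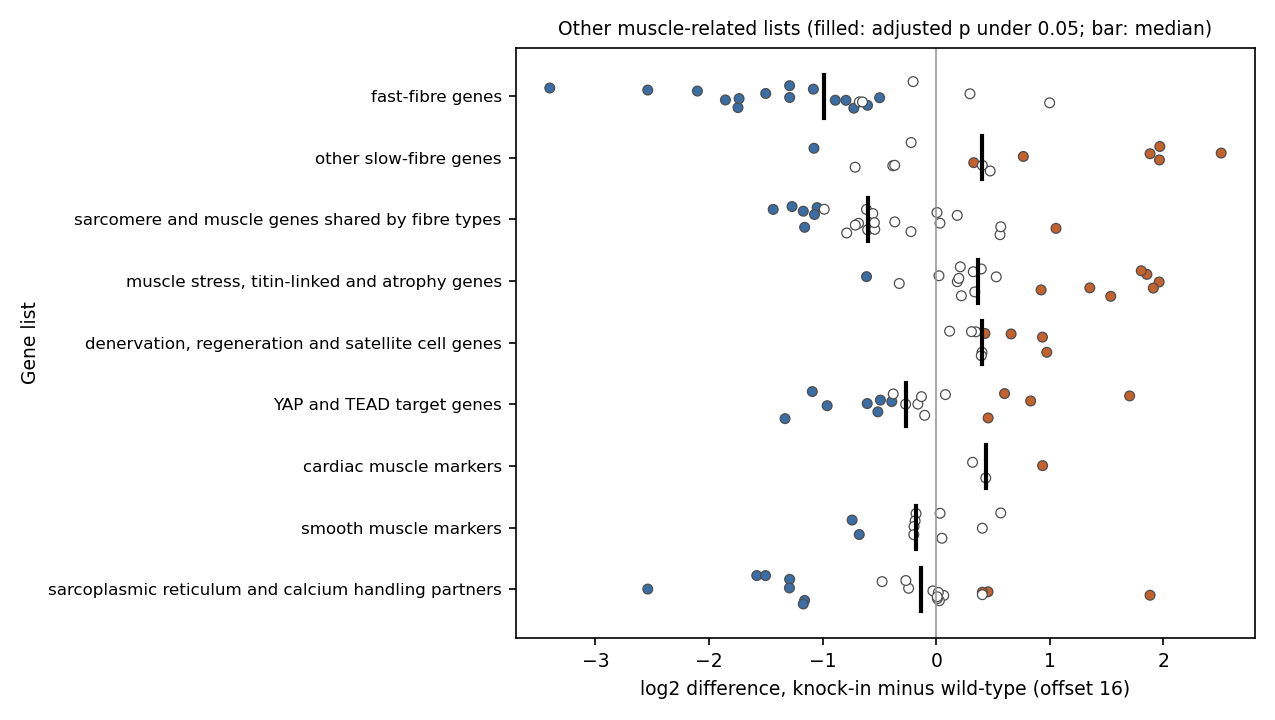
Log2 difference between knock-in and wild-type (x axis, offset 16) of each measured gene on 9 lists (y axis), filled orange where the gene was higher and blue where it was lower at an adjusted p under 0.05, open otherwise; the black bar is the list's median. Fast-fibre genes lie mostly to the left (median -0.99), and the other slow-fibre and stress genes lie on both sides of the zero line and reach farther to the right.

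The genes whose profile over the 6 arrays was nearest to each member were found by the root mean square difference of log2 values, each profile centred on its own mean. For Tnnc1 they were Lmod2, a sarcomeric actin-filament protein (0.23), Gfpt2 (0.25) and Abra, an actin-binding activator of muscle gene expression (0.26), against a median of 0.85 over all genes tested. For Ankrd1 they were Myoz2 (0.48), the microfibril protein Mfap5 (0.49) and Sln (0.49), with a median of 1.54. For Tnnt1 Sln was the nearest (0.31), and for Tnni1 it was Myl4 (0.35). Csrp3 and Ankrd2 were nearest to genes that are not specific to muscle: the urokinase receptor Plaur (0.29) for Csrp3, and the metalloproteinase Mmp19 (0.34) for Ankrd2. The nearest gene to Myh7 was the water channel Aqp3 (0.28), to Myl2 Abra (0.34), to Myl3 Insc (0.13) and to Atp2a2 the proteasome subunit Psmd12 (0.02). With 6 arrays in 2 groups, a likeness of this kind is mostly a likeness in the difference between the groups.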

How the data were processed

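The deposited table holds 1 linear signal intensity for each of 45101 probe sets and 6 arrays, made by the authors with MAS5, per the submitters' processing notes. The MAS5 version is not stated in these sources. Control probe sets (64) were left out of the tests. The platform annotation gave 1 gene symbol to 34945 probe sets, several to 932 and none to 9160. All 10 members matched the RefSeq gene table (GRCm38.p6) by gene ID. The probe set with the highest mean stood for a gene. Genes above the array's median on at least 3 arrays (11670 of 18193) entered the fit on log2(signal + 16), made in R 4.3.3 with limma 3.58.1 (lmFit, eBayes with a mean-variance trend, two-sided, Benjamini-Hochberg over all genes tested, threshold 0.05). Standard errors are from the pooled spread of 3 and 3 arrays. The number of arrays limits the precision. The fit was tested on simulated data with independent noise for each probe set, which checks the code and not the calls made here.

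The members and lists were chosen with earlier results of these data known. By rule the text names the members, up to 4 genes with the smallest unadjusted p from each list, the fast counterparts and genes from the 3 nearest profiles of each member. Myh1, Myh2, Acta1, Myom1, Neb, Ttn, Ckmt2, Fbxo32, Ankrd23, Ccn2, Myh3, Pax7, Myf5 and the dim cardiac markers were named after their values were seen. So were Myod1, Mb, Ppargc1a, Smpx, Tead1, Mybpc1, Myh7b, Myl6b and Pln. Alternatives were other offsets, filters, normalizations, probe set choices and variance models, a replicate block, and each array left out.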

Additional observations from a re-analysis of the deposited data

How the results depend on the processing

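Small numbers of arrays and dim signals limit the members most. All 10 log2 differences of the members kept a positive sign under every alternative except Myl3, which ranged from -0.18 to 0.22 with an array left out. Between 3 and 7 members were called with an array left out, always with Ankrd1, Ankrd2 and Csrp3 among them. As the members were chosen for their signals in these groups, and Ankrd1 and Ankrd2 passed the filter through their knock-in arrays, this says nothing about stability, and the same holds for their signs. The Myh7 and Myh4 pair changed by 4.06 with an offset of 1 and 2.40 with 64. Without the filter, 2 other slow-fibre genes and 1 smooth muscle gene fell. With a stricter filter, 1271 genes were lower, 0 denervation and 0 cardiac genes rose, and 1 smooth muscle gene fell. After quantile normalization, 2 other slow-fibre genes and 1 smooth muscle gene fell, and Fam219b (0.024), Cacng7 (0.13), both near profiles of Myl3, and Acta1 (-0.13) changed sign. With median centring, 1202 genes were lower (2567 higher), 1 fast-fibre, 11 stress, 7 denervation and 1 smooth muscle gene rose, 1 smooth muscle gene fell, and Fam219b (0.058) and Cacng7 (0.13) changed sign. With the mean over probe sets, 2 other slow-fibre genes fell, 2 YAP and TEAD targets rose, and Cacng7 was at 0.059. With array weights, 1 fast-fibre gene rose, 2 other slow-fibre genes fell, and Cacng7 was at 0.057. Probe sets fitted singly gave 2722 higher and 3330 lower, and no value per gene, pair or list.

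With an array left out, 1021 to 1608 genes were higher and 1121 to 1635 lower. Fast-fibre genes numbered 0 to 1 higher, other slow-fibre genes 1 to 2 lower, shared sarcomere genes 0 to 2 higher and 3 to 15 lower, denervation genes 0 to 4 higher, YAP and TEAD targets 4 to 7 lower, cardiac genes 0 to 1 higher, and smooth muscle genes 0 to 1 higher and 1 to 2 lower. The log2 differences whose sign turned spanned -0.23 to 0.16 for Fam219b, -0.14 to 0.11 for Cacng7, -0.033 to 0.57 for Myh1 and -0.20 to 0.14 for Acta1. The causes were not tested.

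Wild-type and knock-in samples share replicate numbers 1 to 3, and the deviations of same-numbered arrays correlated at -0.25, -0.41 and -0.02. These values show no pairing, but arrays of different number were not compared. Whether the numbers pair the samples is thus not settled. With a replicate block, 7 members were called (Tnni1 added), 1264 genes were lower, 2 other slow-fibre genes fell, 1 denervation gene rose, 4 YAP and TEAD targets fell and 1 smooth muscle gene fell.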
